A study of Mus musculus with 3 samples.

Results

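Interferon-stimulated genes are genes whose transcription rises when a cell senses interferon, and 39 of them were followed through the peripheral blood (PB) leukocytes of this study, out of 32285 genes in its feature tables. The members were taken by name from a list that covers the IFIT and OAS antiviral families, antiviral effectors such as Isg15 and Rsad2, the factors Irf7 and Stat2 and the brake Usp18, cytosolic sensors, the p200 family, interferon-inducible GTPases and the Schlafen family. All 39 were found, and each had at least 1 unique molecular identifier (UMI, which marks 1 captured RNA molecule) in every library. The rule used gene names and no measured value.

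The cells came from 3 single-cell libraries, with 1 library per condition, so that a difference between conditions cannot be told apart from a difference between libraries, and no test was made. The conditions were a naive wild-type Balb/C control, and wild-type Balb/C hosts engrafted with the BBC2 line and bled at an intermediate time, D11, or a late time, D14, of disease. BBC2 is 1 mouse line of stem cell leukemia/lymphoma syndrome (SCLL), grown from stem cells that carried the BCR-FGFR1 fusion kinase, and it resembles pro-B cells. All hosts were young adult females, red cells were lysed and dead cells removed before capture, and the number of mice behind a library is not given in the sources used here.

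Interferons signal through paired receptors. Type I interferons bind Ifnar1 and Ifnar2, and the kinases Jak1 and Tyk2 then act through Stat2 and Irf9 at a DNA element called the ISRE. Type II interferon, which NK and T cells make, binds Ifngr1 and Ifngr2, and Jak1 and Jak2 then act through a DNA element called GAS. IFIT and OAS genes are classical targets of the first route, while guanylate-binding proteins (Gbp) and immunity-related GTPases such as Igtp and Irgm1 respond to both and are known above all for type II interferon. In blood, monocytes and neutrophils hold some of these transcripts without infection.

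RefSeq promoters (GRCm38.p6, 250 bases before to 50 after the start of transcription) were found for 31 of the 39 members. The ISRE core was searched as GAAANNGAAA and, for the other strand, TTTCNNTTTC, and the GAS as TTCNNNGAA, which reads the same on both strands, and matches could overlap each other. An ISRE core lay in a promoter of 21 of the 31 members (67.7%), against 3.92% of the 26987 other genes with a promoter searched. A GAS lay in 9 of the 31 (29.0%), against 9.53% of those other genes. Among the GTPases, 6 of 7 had an ISRE core and 3 of 7 a GAS, and among the other members the counts were 15 and 6 of 24. A match describes letters only and was not tied to binding.

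Promoters of some members on which the results turn are shown, with each ISRE core match in capitals. They are examples and do not stand for all members that were lower or higher at D14. Ifit1, Isg15, Oas3 and Slfn5 were lower at D14 in monocyte-like or neutrophil-like cells, and Gbp2, Gbp5 and Gbp7 were higher in ncMono-like cells.
Ifit1 (chr19:34640639-34640938, plus strand): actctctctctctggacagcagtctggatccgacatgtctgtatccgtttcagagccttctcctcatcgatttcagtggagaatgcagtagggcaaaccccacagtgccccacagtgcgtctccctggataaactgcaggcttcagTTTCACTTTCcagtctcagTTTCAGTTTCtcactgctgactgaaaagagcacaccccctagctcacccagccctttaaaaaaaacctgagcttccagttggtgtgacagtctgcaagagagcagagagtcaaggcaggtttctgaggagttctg
Isg15 (chr4:156200769-156201068, minus strand): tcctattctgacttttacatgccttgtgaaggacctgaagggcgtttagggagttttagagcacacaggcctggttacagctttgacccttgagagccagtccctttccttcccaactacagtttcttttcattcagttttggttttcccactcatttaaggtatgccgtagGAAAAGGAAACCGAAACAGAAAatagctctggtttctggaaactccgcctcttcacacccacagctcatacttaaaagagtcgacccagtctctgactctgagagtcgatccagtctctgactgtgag
Oas3 (chr5:120777610-120777909, minus strand): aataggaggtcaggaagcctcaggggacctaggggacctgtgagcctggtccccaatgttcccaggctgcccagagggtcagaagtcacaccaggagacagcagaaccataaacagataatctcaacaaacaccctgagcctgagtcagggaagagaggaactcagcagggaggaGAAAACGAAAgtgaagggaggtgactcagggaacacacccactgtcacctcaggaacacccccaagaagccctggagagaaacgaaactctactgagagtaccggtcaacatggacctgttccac
Slfn5 (chr11:82951852-82952151, plus strand): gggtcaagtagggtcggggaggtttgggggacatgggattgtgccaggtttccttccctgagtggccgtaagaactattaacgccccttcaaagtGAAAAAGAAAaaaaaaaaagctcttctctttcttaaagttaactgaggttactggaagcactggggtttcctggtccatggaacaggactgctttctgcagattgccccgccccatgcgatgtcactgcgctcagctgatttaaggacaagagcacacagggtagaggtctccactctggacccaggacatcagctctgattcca
Gbp2 (chr3:142620413-142620712, plus strand): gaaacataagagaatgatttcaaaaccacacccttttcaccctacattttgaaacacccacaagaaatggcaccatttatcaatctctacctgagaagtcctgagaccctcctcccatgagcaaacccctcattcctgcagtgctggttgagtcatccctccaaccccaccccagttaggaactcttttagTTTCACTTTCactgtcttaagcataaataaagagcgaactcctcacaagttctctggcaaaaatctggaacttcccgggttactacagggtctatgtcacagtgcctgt
Gbp5 (chr3:142496684-142496983, plus strand): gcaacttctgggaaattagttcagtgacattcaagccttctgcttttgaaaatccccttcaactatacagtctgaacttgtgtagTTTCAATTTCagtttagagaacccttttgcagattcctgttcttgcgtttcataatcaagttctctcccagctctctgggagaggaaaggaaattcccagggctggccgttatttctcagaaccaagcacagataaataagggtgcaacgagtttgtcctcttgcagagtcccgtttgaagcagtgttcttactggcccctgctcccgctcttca
Gbp7 (chr3:142530086-142530385, plus strand): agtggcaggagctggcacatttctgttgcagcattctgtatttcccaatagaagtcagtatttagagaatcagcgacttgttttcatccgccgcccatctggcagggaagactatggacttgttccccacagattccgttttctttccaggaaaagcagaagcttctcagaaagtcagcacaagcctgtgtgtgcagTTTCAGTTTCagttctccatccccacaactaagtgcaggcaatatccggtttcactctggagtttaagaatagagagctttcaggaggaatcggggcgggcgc

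The Ifit1 matches began 104 and 85 bases before the start, and the 3 matches of Isg15, at 78, 72 and 66 bases, overlapped each other. Oas3 had 1 match 75 bases before the start and Slfn5 had 1 at 155 bases. The Gbp2, Gbp5 and Gbp7 promoters held 1 ISRE core each, at 59, 165 and 53 bases before the start. Gbp5 also held GAS matches, TTCTGGGAA at 245 and TTCTCAGAA at 52 bases, and Gbp7 held TTCCAGGAA at 106 and TTCTCAGAA at 87 bases. No GAS was matched in the Gbp2 window. Lower members that are not shown also held a GAS. These were Ifit2, Oas1a, Ifi202b and Bst2, lower at D14 in cMono-like cells, and Ifitm3, lower in ncMono-like cells. Neither element was matched in the windows of Irf7, Ifi44, Xaf1 and Ifi47.

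On the annotation of GRCm38 members of several families share a chromosome, not always side by side. The 4 IFIT members lie on chromosome 19 and the 4 OAS members on chromosome 5, and the guanylate-binding genes share chromosome 3 with Ifi44. Gbp5 lies at chr3:142493978-142522344, Gbp7 at chr3:142530342-142550149, Gbp3 at chr3:142560026-142573209 and Gbp2 at chr3:142620602-142638008, all on the plus strand. Chromosome 11 carries 9 members, among them Igtp, Irgm1, Ifi47 and the 3 Schlafen genes. The p200 members Ifi202b, Ifi203 and Ifi204 lie on chromosome 1.

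The libraries held 30362408, 57640396 and 65861863 UMIs in naive, D11 and D14. A filter of 200 genes or more and 10% mitochondrial UMIs or less retained 3811, 4567 and 4414 cells. A cell was put in a class when UMIs of at least 3 of the listed markers of that class were found and it led every other list by at least 2 markers, and no member was among the markers. Nonclassical monocyte-like (ncMono-like) cells, marked by Ace, Treml4 and Cd300e, numbered 124, 205 and 626 in naive, D11 and D14. Classical monocyte-like (cMono-like) cells, marked by Ccr2, F13a1 and Ly6c2, numbered 129, 222 and 117, and neutrophil-like cells 1329, 1673 and 1314. Cells without a class made up 8.19%, 9.0% and 15.9%. Hemoglobin transcripts took 11.2%, 55.9% and 22.5% of all UMIs, and each pair of libraries shared between 12 and 18 barcodes.

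Values are the UMIs of a gene per 1000000 UMIs of the class (CPM), summed over its cells. The intervals in brackets are 95% and cover counting error only. The smallest sum, that of B-like cells at D14, held 317005 UMIs. The levels count 3′ ends of molecules and are set side by side between cells, not between genes.

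The members together took 0.449%, 0.397% and 0.207% of the UMIs of ncMono-like cells in naive, D11 and D14. In cMono-like cells the share was highest of the 6 blood classes in the naive library, at 1.09%, and was 0.866% at D11 and 0.448% at D14. Neutrophil-like cells held 0.549%, 0.492% and 0.361%. The D14 share was thus 0.461 of the naive one in ncMono-like cells [0.446 to 0.477], 0.412 in cMono-like cells [0.402 to 0.421] and 0.656 in neutrophil-like cells [0.645 to 0.668]. The D11 shares lay between the naive and the D14 shares in all 3 classes. Under TMM scaling, which matches the bulk of genes between sums, the D11 ratio of neutrophil-like cells turned from 0.896 to 1.02. That scaling raised the log2 ratios of neutrophil-like cells by 0.19 at D11 and 0.18 at D14 and lowered those of T-like cells at D14 by 0.16, and it moved the other ratios by less than 0.1.

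Lymphocyte-like classes held lower shares than cMono-like and neutrophil-like cells in every library. In B-like cells the share was 0.112%, 0.127% and 0.109%, and the D14 to naive ratio of 0.975 [0.869 to 1.09] was within counting error of 1. In NK-like cells the share was 0.128%, 0.121% and 0.102%. T-like cells held 0.223%, 0.296% and 0.240%, so that their highest library was D11, at 1.33 times naive. Their D14 ratio of 1.07 became 0.962 under TMM scaling. Leukemia cells of the pro-B-like class held 0.0437% at D11 and 0.0677% at D14, and cells with erythroid markers, which are not plotted, 0.0807%, 0.103% and 0.0664%. Hemoglobin took 90.3%, 90.2% and 87.2% of the UMIs of the erythroid class, so its shares cannot be ranked beside those of the other classes.

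**Figure D1:**
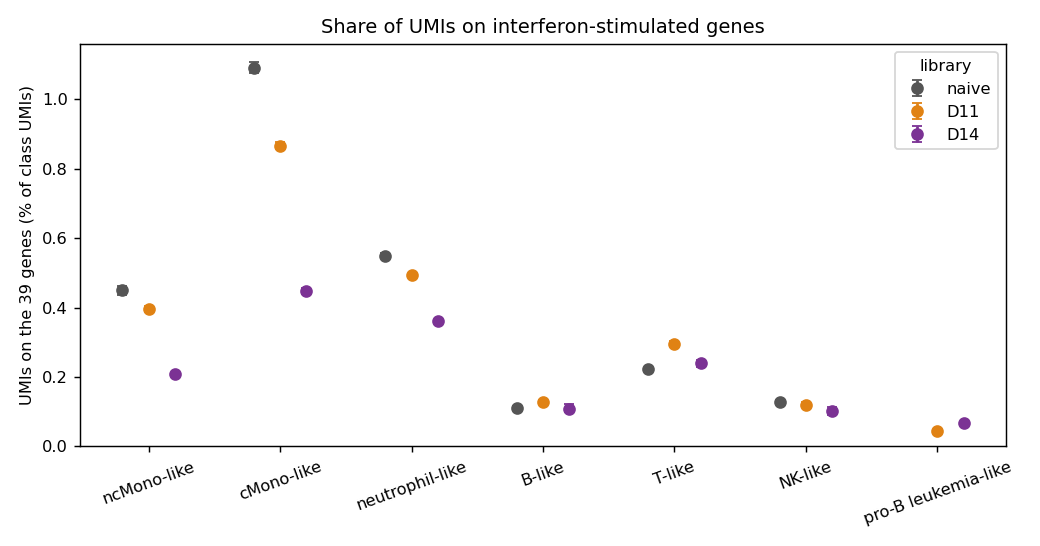
Share of UMIs on the 39 interferon-stimulated genes (% of the class's UMIs, y axis from 0) in each cell class but the erythroid (x axis), with 1 point per library (grey naive, orange D11, purple D14) and bars for 95% counting intervals. The cMono-like point drops from 1.09% in naive to 0.448% at D14, while B-like cells stay between 0.109% and 0.127%.

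The members were spread unevenly over classes in the naive library. Ifi44 stood at 354 CPM in cMono-like and 82.0 CPM among ncMono-like cells and at 5.01 CPM or less in neutrophil-like, B-like, T-like and NK-like cells. The p200 gene Ifi202b, a member of a family that binds DNA, was likewise at 366 CPM in cMono-like cells and 9.82 CPM among neutrophil-like cells. Rsad2, which makes viperin, was at 201 CPM among neutrophil-like cells, at 25.8 CPM in cMono-like cells and at 5.86 CPM among ncMono-like cells. Slfn1, a Schlafen gene, was at 660 CPM among neutrophil-like cells and 232 CPM in cMono-like cells. Lymphocytes held another set. Ifi203 was at 439 CPM in T-like, 384 CPM in NK-like and 297 CPM in B-like cells, against 10.6 CPM among neutrophil-like cells. Ifi47, an immunity-related GTPase, was at 103 CPM in T-like and 81.5 CPM in NK-like cells.

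**Figure D2:**
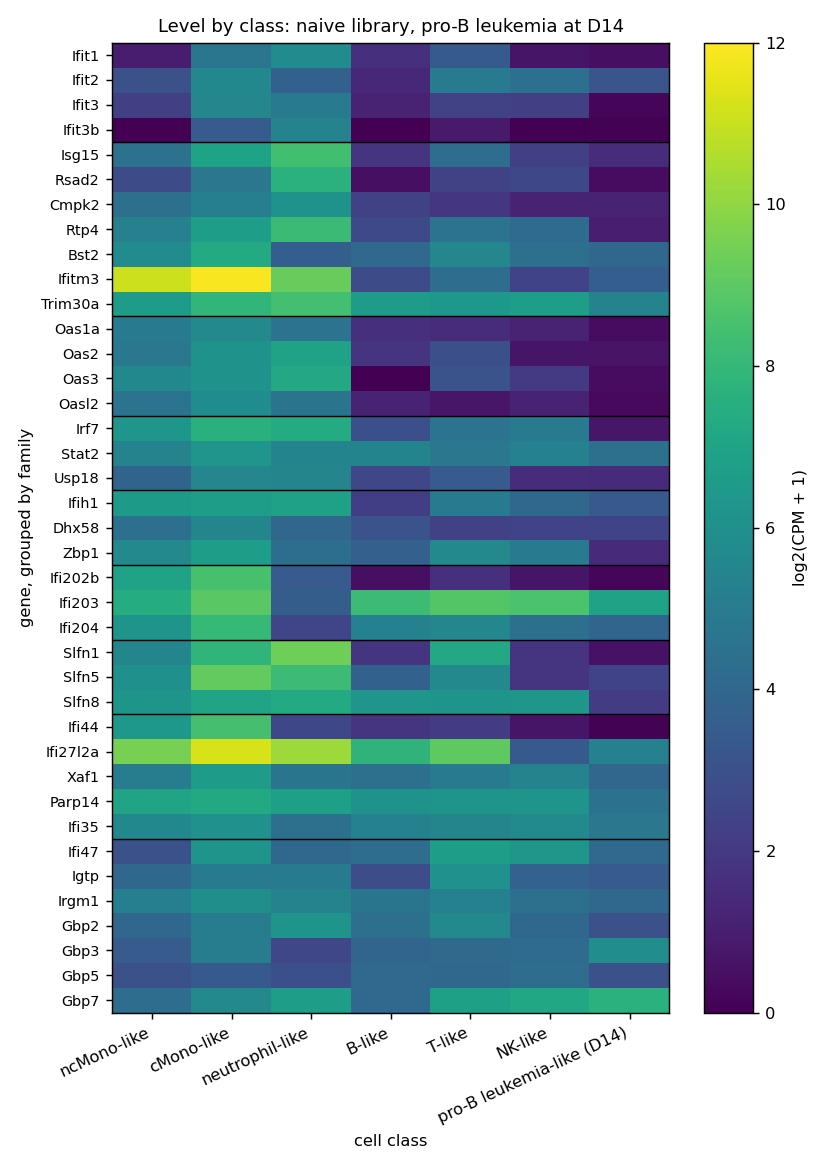
Level of each member (rows, grouped by family between black lines) as log2(CPM + 1) in each class (columns), for the naive library and, in the last column, pro-B leukemia-like cells at D14. Ifi44 and Ifi202b are bright in the monocyte-like columns, Ifi203 in the lymphocyte-like columns, and most IFIT and OAS rows are dark in the last column.

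A member was counted as higher or lower when its mean over the libraries was at least 20 CPM and the ratio to naive was at least 2-fold. In ncMono-like cells 24 members passed that minimum. At D11 2 of them were higher, Gbp5 and Zbp1 (1.94% of all 6141 genes tested were), and 0 were lower (1.76% of all genes). At D14 3 were higher, Gbp2, Gbp5 and Gbp7 (3.09% of all genes). Their naive levels were all under 20 CPM, so each reached the minimum only through D11 and D14, and the calls are a description. Another 12 were lower (2.61% of all genes), namely Oas3, Irf7, Ifi44, Ifi27l2a, Ifi202b, Ifi204, Slfn1, Slfn5, Slfn8, Xaf1, Rtp4 and Ifitm3. Lower members under 20 CPM at D14, such as Oas3, Ifi44, Slfn5 and Rtp4, reached the minimum through the earlier libraries. Their calls are likewise a description. The median log2 ratio of the 24 members at D14 was -1.02, beside 0.01 over all genes. With a minimum of 50 CPM the counts were 0 higher and 5 lower, and the share over all genes at that minimum was not computed.

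In cMono-like cells 34 members passed the minimum. At D11 0 were higher (0.993% of all genes) and 2 were lower, Ifit2 and Gbp2 (0.684% of all genes). Both were under 20 CPM at D11, and Ifit2 reached the minimum through naive alone and Gbp2 through naive and D14. The D11 calls are therefore a description. At D14 0 were higher (3.97% of all genes) and 21 were lower (3.52% of all genes), with a median log2 ratio of -1.33 beside 0.03 over all genes. By family these were all 4 OAS, 3 p200 and 3 Schlafen members, Ifit2, 4 of 6 effectors, Irf7 and Usp18, Dhx58, 3 of 5 others and 0 of 6 GTPases past the minimum. Those under 20 CPM at D14, such as Oasl2, Usp18, Cmpk2 and Rtp4, reached the minimum through the earlier libraries, and Ifit2 through naive alone. Their calls are a description. The median of the members was -0.38 at D11, so the larger part of the difference lay between D11 and D14.

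In neutrophil-like cells 30 members passed. Gbp5 was the 1 member higher at D11 (1.98% of all genes) and 0 were lower (1.35%). At D14 Ifi47, Gbp5 and Zbp1 were higher (6.90% of all genes). Each was under 20 CPM in naive, and Ifi47 and Gbp5 reached the minimum only through D14, so these calls are a description. At D14 11 were lower (9.15% of all genes), namely Ifit1, Ifit3, Ifit3b, Isg15, Rsad2, Irf7, Usp18, Ifi27l2a, Slfn5, Slfn8 and Rtp4. Of these, Ifit3, Ifit3b and Usp18 were under 20 CPM at D14 and reached the minimum through the earlier libraries. Their calls are a description as well. The members' median was -0.43 beside -0.21 over all genes.

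**Figure D3:**
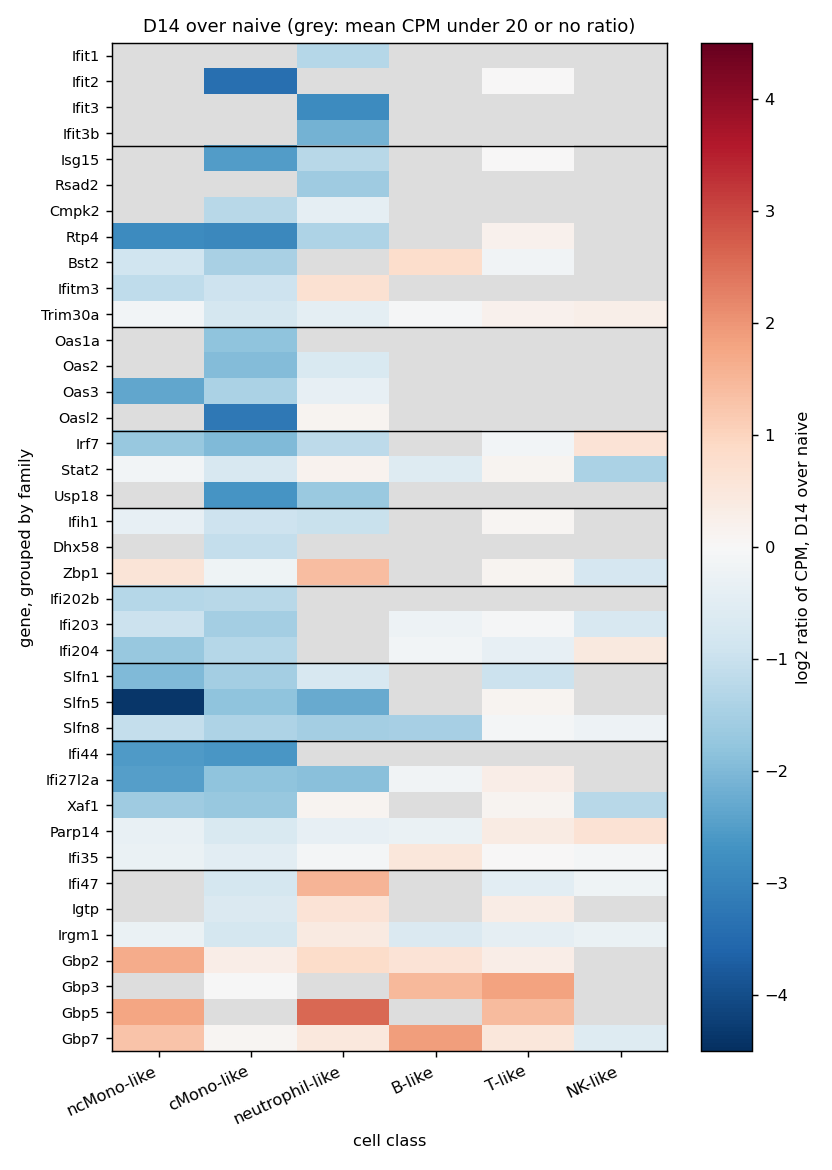
Log2 ratio of CPM at D14 over naive for each member (rows, grouped by family) in each class (columns); blue is lower at D14, red higher, and grey marks members whose mean was under 20 CPM or that gave no ratio. Most monocyte-like cells of the map are blue, down to -4.39 for Slfn5 in ncMono-like cells, while Gbp2, Gbp5 and Gbp7 at the bottom are red in ncMono-like cells.

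IFIT proteins bind foreign RNA and block its translation. In cMono-like cells Ifit2 was at 48.0 CPM in naive, 17.4 CPM at D11 and 4.58 CPM at D14, a log2 ratio of -3.39 [-4.40 to -2.51] from naive to D14. Ifit3 was at 46.2 and 11.8 CPM and had 0 UMIs at D14, which is at least 40.4-fold lower against a floor of 3 counts. Ifit1 went from 25.2 to 18.1 and 2.67 CPM in the same cells. Ifit1, Ifit3 and Ifit3b were under the minimum in cMono-like cells, so they were not called there and their values are a description. Each IFIT gene thus had its lowest cMono-like level at D14.

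Neutrophil-like cells held Ifit1 at 53.9 CPM in naive, 77.2 CPM at D11 and 22.3 CPM at D14. Their Ifit3 was at 28.8, 32.7 and 4.04 CPM, with a D14 log2 ratio of -2.83 [-3.50 to -2.22]. Ifit3b was at 40.7, 44.7 and 9.33 CPM. For all 3 genes D11 was above naive in these cells, for Ifit1 alone beyond counting error, and D14 was below it. Ifit3 and Ifit3b share sequence: of the 60-base words of the longest Ifit3 transcript, 47.0% also occur in Ifit3b, and 40.8% the other way. In the last 500 bases the shares were 12.9% and 0%. How reads from shared stretches were counted was not examined. The ncMono-like cells held every IFIT gene under 10 CPM in all libraries.

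Among the antiviral effectors, Isg15, a ubiquitin-like modifier, was at 123, 88.0 and 21.4 CPM in cMono-like cells and at 331, 379 and 140 CPM among neutrophil-like cells. Rsad2 was at 201, 257 and 65.5 CPM among neutrophil-like cells. Rtp4, which restrains viral replication, was at 36.1, 37.9 and 5.07 CPM among ncMono-like cells, 103, 69.3 and 13.7 CPM in cMono-like cells, and 293, 240 and 112 CPM among neutrophil-like cells. Its D14 log2 ratios were -2.83, -2.90 and -1.39. Bst2 (tetherin, which holds budding virus at the cell surface) was at 162, 121 and 59.6 CPM in cMono-like cells, and Cmpk2, a nucleotide kinase that neighbours Rsad2, at 35.4, 37.4 and 14.9 CPM. In each of these genes and classes the D14 library was the lowest.

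Ifitm3, which blocks virus entry at endosomes, had the most UMIs of all members in monocyte-like and neutrophil-like cells, and its direction differed between them. Its ncMono-like levels were 2144, 1952 and 981 CPM and its cMono-like levels 3821, 3259 and 2003 CPM. In neutrophil-like cells it was at 598, 752 and 972 CPM, a log2 ratio of 0.70 [0.64 to 0.76]. Neutrophil-like cells with few secondary granule transcripts held it at 599, 680 and 689 CPM.

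OAS enzymes make the 2′-5′ oligoadenylates that switch on RNase L. Oas3 was at 46.9, 26.0 and 9.38 CPM among ncMono-like cells, a D14 log2 ratio of -2.32 [-2.89 to -1.75], and at 71.4, 46.3 and 26.7 CPM in cMono-like cells. All 4 OAS members were past 2-fold lower in cMono-like cells at D14, the farthest being Oasl2 at 56.4, 32.2 and 6.11 CPM. In neutrophil-like cells 0 of the 3 OAS genes past the minimum were past 2-fold, with Oas2 at 120, 90.5 and 74.8 CPM, Oas3 at 148, 147 and 114 CPM and Oasl2 at 23.6, 26.0 and 25.8 CPM. Within neutrophil-like cells with few granule transcripts, the D14 log2 ratios of Oas2, Oas3 and Oasl2 were -0.26 [-0.48 to -0.04], -0.23 [-0.43 to -0.04] and 0.84 [0.44 to 1.24].

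Of the factors, Irf7, the amplifier of type I interferon transcription, was at 78.1, 54.7 and 24.0 CPM among ncMono-like cells, 196, 134 and 49.2 CPM in cMono-like cells and 166, 123 and 74.2 CPM among neutrophil-like cells. The D14 log2 ratios were -1.70 [-2.10 to -1.30], -1.99 [-2.30 to -1.69] and -1.16 [-1.33 to -1.0]. In neutrophil-like cells with few granule transcripts the Irf7 ratio was -0.72 [-0.93 to -0.52], under 2-fold. Usp18, which removes Isg15 from proteins and damps the type I receptor, was at 45.6, 37.8 and 7.25 CPM in cMono-like cells and at 43.3, 37.2 and 13.5 CPM among neutrophil-like cells. Stat2 was at 40.0, 47.1 and 36.6 CPM among ncMono-like cells and at 41.9, 35.2 and 47.1 CPM among neutrophil-like cells, with D14 intervals that include no change. In cMono-like cells it was at 76.2, 54.8 and 46.2 CPM, a D14 log2 ratio of -0.72 [-1.09 to -0.35], and in neutrophil-like cells with few granule transcripts the ratio was 0.58 [0.27 to 0.89].

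The sensors did not move as 1 group. Ifih1 (MDA5, a sensor of double-stranded RNA) was at 106, 94.5 and 55.7 CPM in cMono-like cells and at 114, 108 and 57.4 CPM among neutrophil-like cells. Its D14 log2 ratio in neutrophil-like cells with few granule transcripts was -0.40 [-0.63 to -0.17]. Zbp1, a sensor of Z-form nucleic acid, was above naive in ncMono-like cells, at 48.8, 106 and 72.5 CPM, and in neutrophil-like cells, at 19.0, 30.7 and 49.5 CPM. Its cMono-like levels were 102, 117 and 89.3 CPM.

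The p200 genes were lower in both monocyte-like classes. Ifi204 was at 72.3, 39 and 22.0 CPM among ncMono-like cells and at 258, 212 and 107 CPM among cMono-like cells. Ifi203 was at 169, 95.8 and 85.8 CPM and at 490, 320 and 171 CPM in those classes, and Ifi202b at 119, 71.5 and 49.0 CPM and at 366, 292 and 154 CPM. All 3 were already lower at D11 beyond counting error in both classes. The longest transcripts of Ifi203 and Ifi204 shared 0 words of 60 bases with the other gene.

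Schlafen genes are known for limiting the growth of immune cells and the replication of viruses. Slfn5 was at 64.5, 43.9 and 3.07 CPM among ncMono-like cells, a log2 ratio of -4.39 [-5.19 to -3.65] that is the farthest of all members past the minimum in any class. It was at 546, 459 and 157 CPM in cMono-like cells and at 294, 210 and 60.5 CPM among neutrophil-like cells. The paper lists Slfn5 among the genes that define cMonos, and the part of cell makeup in the ncMono-like ratio was not tested. Slfn1 and Slfn8 were lower in ncMono-like and cMono-like cells at D14, with log2 ratios between -1.98 and -1.07.

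Ifi27l2a, which encodes a small interferon-induced membrane protein, was at 740, 644 and 131 CPM among ncMono-like cells, 2451, 1836 and 693 CPM in cMono-like cells and 1223, 762 and 332 CPM among neutrophil-like cells. The log2 ratios at D14 were -2.49 [-2.64 to -2.35], -1.82 [-1.90 to -1.74] and -1.88 [-1.95 to -1.81]. Ifi44 was at 82.0, 44.4 and 14.1 CPM among ncMono-like cells and 354, 212 and 58.0 CPM in cMono-like cells. Xaf1, which antagonises an inhibitor of apoptosis, was at 98.5, 90.9 and 30.5 CPM in cMono-like cells and at 24.4, 29.1 and 26.8 CPM among neutrophil-like cells. Parp14 and Ifi35 stayed under 2-fold in all 3 classes, and Trim30a, which had many UMIs in each, was at 95.7, 83.4 and 86.8 CPM among ncMono-like cells.

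**Figure D4:**
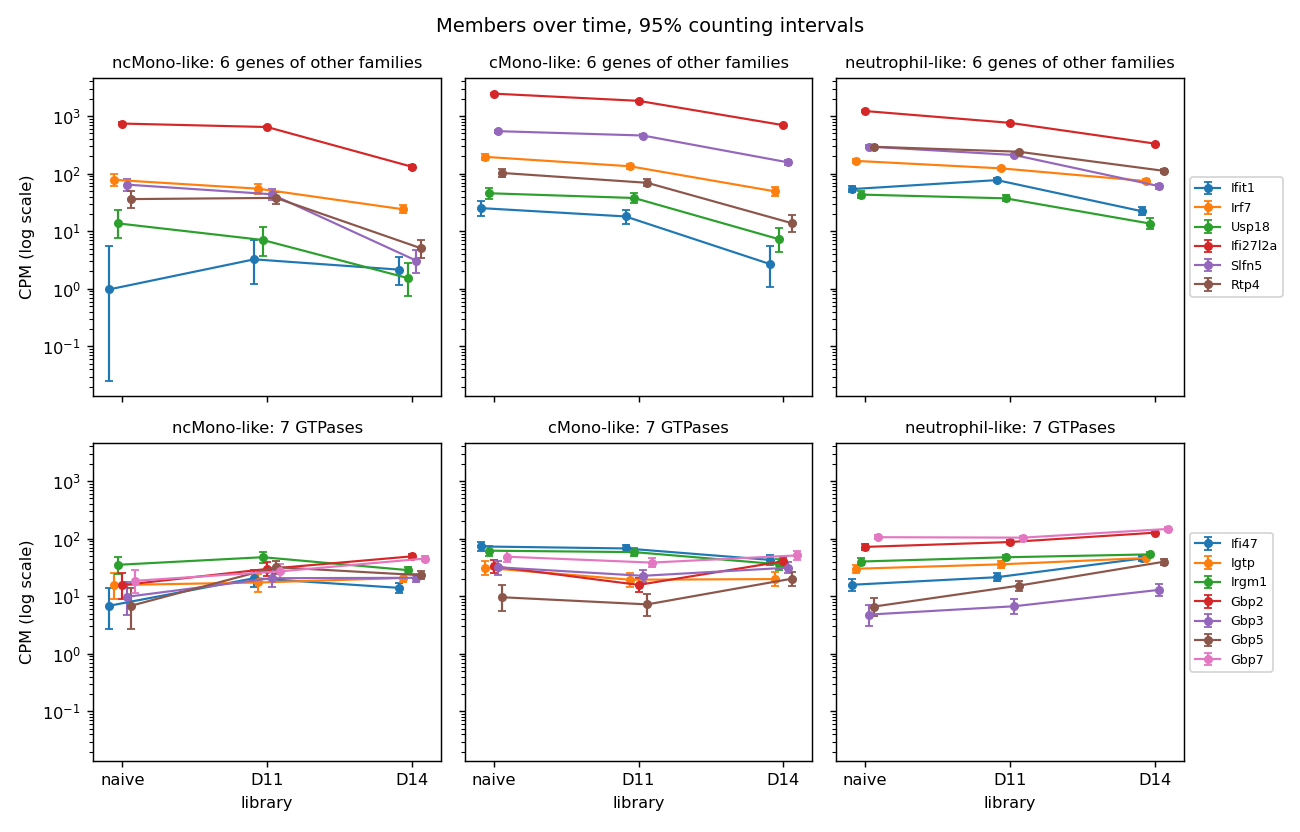
CPM on a log scale (y axis) in the naive, D11 and D14 libraries (x axis) for 6 members of other families (top row) and the 7 GTPases (bottom row) in ncMono-like, cMono-like and neutrophil-like cells, with 95% counting intervals. The 6 members were picked because they fell with time, so the contrast between the rows is a description. Members such as Zbp1 and Ifitm3, higher at D14 in neutrophil-like cells, are not drawn. Irf7, Ifi27l2a, Slfn5 and Rtp4 have their lowest point at D14 in every panel of the top row, while Gbp5 has its lowest point in naive in the ncMono-like and neutrophil-like panels.

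Of the 7 GTPases, 4 passed the minimum in ncMono-like cells, and 3 of these (Gbp2, Gbp5 and Gbp7) were above their naive level at D14. These proteins assemble on the membranes of intracellular pathogens and on phagosomes. In ncMono-like cells Gbp2 was at 15.6, 29.8 and 49.3 CPM, a D14 log2 ratio of 1.66 [0.94 to 2.48], Gbp5 at 6.84, 31.9 and 23.2 CPM, a ratio of 1.76 [0.69 to 3.10], and Gbp7 at 18.6, 27.1 and 45.2 CPM, a ratio of 1.28 [0.61 to 2.04]. Irgm1 was at 35.2, 47.7 and 28.4 CPM. The naive values rest on few molecules, 16 UMIs for Gbp2 and 7 for Gbp5. Gbp2, Gbp5 and Gbp7 were under 20 CPM in naive and passed the minimum only through D11 and D14, so their calls are a description. In neutrophil-like cells Gbp5 was at 6.61, 15.3 and 39.7 CPM, a log2 ratio of 2.59 [2.06 to 3.15]. Ifi47 was at 15.8, 21.4 and 45.3 CPM, a ratio of 1.52 [1.15 to 1.89]. Both ratios rest on a minimum reached only through D14. Gbp2 was at 71.9, 87.3 and 127 CPM there. All 6 GTPases past the minimum in neutrophil-like cells were above their naive level at D14, with a median log2 ratio of 0.72.

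In cMono-like cells 0 of the 6 GTPases past the minimum were past 2-fold at D14, and their median log2 ratio was -0.34. Gbp7 was at 48.6, 38.4 and 51.2 CPM and Gbp3 at 31.8, 22.7 and 31.3 CPM, with D14 intervals that include no change. Gbp2 was at 33.0, 15.8 and 40.5 CPM. Ifi47, Igtp and Irgm1 were lower at D14 by less than 2-fold, with log2 ratios of -0.78, -0.65 and -0.79. Gbp5 was under the minimum at 9.61, 7.22 and 20.2 CPM.

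The neutrophil-like class changed in makeup over the same libraries. Its cells with over 0.05% of UMIs on the secondary granule genes Camp, Ltf and Ngp, which mark less mature neutrophils, made up 1.96%, 17.0% and 51.3% of the class. Those cells held the members at 0.190%, 0.317% and 0.318% of UMIs, below the 0.565%, 0.552% and 0.432% of the other cells. Among the other cells alone, the D14 ratio of the summed share was 0.766 and the D11 ratio 0.978. The values moved with this makeup, whose part in the class ratios was not tested beyond this split.

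Within the granule-gene-low cells 31 members passed the minimum. At D11 Gbp5 was higher (1.27% of all genes) and 0 were lower (0.794%). At D14 7 were higher (5.69% of all genes), namely Ifi47, Igtp, Irgm1, Gbp2, Gbp5, Gbp7 and Zbp1. Of these, Gbp5 reached the minimum only through D14, and Ifi47 and Zbp1 were also under 20 CPM in naive. The calls of Gbp5, Ifi47 and Zbp1 are therefore a description. Another 7 were lower (4.61% of all genes), namely Ifit3, Ifit3b, Rsad2, Usp18, Ifi27l2a, Slfn5 and Slfn8. The calls of Ifit3, Ifit3b and Usp18, which were under 20 CPM at D14, are a description too. Gbp5 was at 6.89, 18.7 and 76.4 CPM in these cells, a log2 ratio of 3.47, Ifi47 at 16.1, 26.4 and 81.8 CPM and Gbp2 at 74.8, 107 and 214 CPM. Slfn5 was at 306, 256 and 103 CPM and Ifi27l2a at 1265, 902 and 427 CPM. Ifit1, Isg15, Irf7 and Rtp4 were past 2-fold lower over the whole class but not here. Their D14 log2 ratios were -0.87, -0.70, -0.72 and -0.93 in the granule-gene-low cells. Igtp, Irgm1, Gbp2 and Gbp7 were above 20 CPM in naive as well. For these GTPases, the distance to the IFIT, Schlafen and Ifi27l2a genes was also present in neutrophil-like cells with few granule transcripts.

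**Figure D5:**
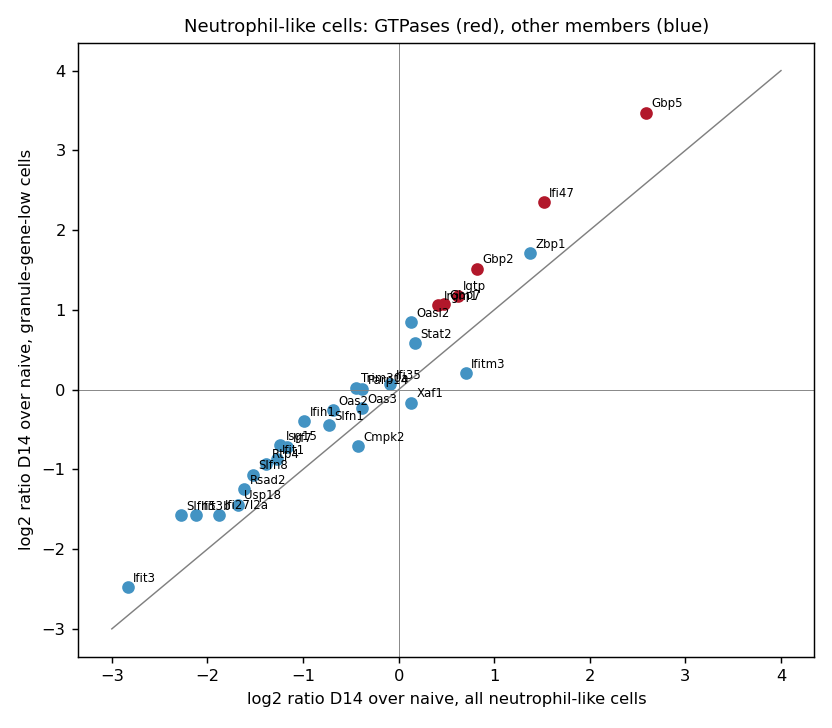
Log2 ratio at D14 over naive of each member past the minimum in neutrophil-like cells, over all cells of the class (x axis) and over cells with at most 0.05% of UMIs on Camp, Ltf and Ngp (y axis); red points are GTPases, blue points other members, and the grey diagonal marks equal values. Most points lie above the diagonal, Gbp5 at 2.59 and 3.47, and Ifitm3 lies below it at 0.70 and 0.20.

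A small share of neutrophil-like cells held UMIs of several IFIT genes or of Usp18 and Cmpk2. Cells under 2000 UMIs were left out of this measure, and each other cell was thinned to 2000 UMIs. This kept 1213, 1387 and 989 of the 1329, 1673 and 1314 neutrophil-like cells in naive, D11 and D14. The part of this loss in the shares was not tested. The 6 genes counted were Ifit1, Ifit2, Ifit3, Ifit3b, Usp18 and Cmpk2. Cells with UMIs of at least 2 of them were 7.34% of the kept naive cells [5.93 to 8.95], 9.52% at D11 [8.02 to 11.2] and 2.63% at D14 [1.72 to 3.83]. They held 61.1%, 75.1% and 39.5% of the UMIs of those genes. Isg15, for example, was higher in these cells than in cells with none of the 6 genes, at 1247 against 194 CPM in naive and at 1077 against 123 CPM at D14, and Slfn5 at 1230 against 160 CPM and at 1192 against 37.5 CPM. Gbp5 was at 11.2 against 8.57 CPM in naive, at 129 against 6.59 CPM at D11 and at 769 against 26.8 CPM at D14. In cMono-like cells such cells were 8.66% of naive, 4.07% of D11 and 0 of 117 at D14, which allows a share of up to 2.56% by a floor of 3 counts, with a Clopper-Pearson upper limit of 3.10%. In NK-like cells the count was 0 of 194 in naive, and in pro-B leukemia-like cells 0 of 493 at D14, at the same thinned depth. T-like cells went the other way, at 0.874% of naive, 2.55% of D11 and 2.73% of D14, the last being 3 of 110 cells. In ncMono-like cells they were 1 of 122, 1 of 203 and 2 of 619 cells, with intervals of 0.02% to 4.48%, 0.01% to 2.71% and 0.04% to 1.16%. In B-like cells they were 1 of 374, 1 of 229 and 0 of 40 cells. These counts are too few to order the libraries. The cells were set apart by members themselves, so the values are a description.

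Across all cells of the class, the spread was wide. The 10% of naive neutrophil-like cells with the most UMIs of members, 133 cells, held 36.3% of the members' UMIs. The top 10% of naive cMono-like cells by the same count held 20.1%. Cells were ranked by this count and not by share, so cells with more UMIs in all weigh more. By share, the lower and upper quartiles were 0.209% and 0.728% in naive neutrophil-like cells and 0.759% and 1.30% in naive cMono-like cells. The median share per cell in ncMono-like cells was 0.370%, 0.328% and 0.191%, and in cMono-like cells 1.07%, 0.807% and 0.446%, so the typical cell moved with the sum.

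T-like cells had 25 members past the minimum. At D11 Gbp3 was higher (3.74% of all genes) and 0 were lower (0.667%), and at D14 Gbp3 and Gbp5 were higher (5.06%) and 0 lower (1.24%). Gbp3 was at 16.6, 50.5 and 58.1 CPM, a D14 log2 ratio of 1.81 [1.36 to 2.25], and Gbp5 at 15.5, 26.8 and 41.5 CPM. Both were under 20 CPM in naive and reached the minimum through D11 and D14, so these calls are a description. Ifi27l2a, which had the most UMIs of the members in T-like cells, was at 523, 869 and 639 CPM, highest at D11. Slfn1 was at 152, 102 and 76.7 CPM. Ifi47 and Ifi203, also among the leading members there, stayed under 2-fold.

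In B-like cells 13 members passed the minimum. Gbp3 was at 13.9, 35.0 and 37.9 CPM and Gbp7 at 16.3, 69.2 and 59.9 CPM, both past 2-fold higher at D11 (1.32% of all genes) and at D14 (5.08%). Both were under 20 CPM in naive and reached the minimum through D11 and D14, so these calls are a description. At D11 0 were lower (0.576%), and at D14 Slfn8 was, at 79.2, 61.8 and 28.4 CPM (4.59%). The D14 class held 41 cells, and pro-B leukemia markers summed to 1.63, 5.38 and 12.6 CPM in it, and their part in these levels was not tested. In NK-like cells, of which 52 were found at D14, 13 members passed. At D11 0 were higher (0.784%) and 0 lower (0.816%), and at D14 0 were higher (3.07%) and Stat2 and Xaf1 were lower (4.03%). Gbp7 in NK-like cells was at 140, 123 and 93.3 CPM.

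Leukemia cells were read from 90 pro-B leukemia-like cells at D11 and 496 at D14, with 1 such cell in the naive library, which was not used. At D14 every OAS member and Irf7, Usp18, Rsad2, Ifit1, Ifit3 and Ifit3b lay under 2 CPM, while Ifit2 had 134 UMIs. Gbp7, at 118 and 205 CPM, Ifi203, at 88.4 and 118 CPM, and Gbp3, at 51.4 and 58.3 CPM, led the 6 members past the minimum. From D11 to D14 Ifi27l2a, at 14.0 and 37.7 CPM, and Trim30a, at 18.2 and 39.6 CPM, were higher by at least 2-fold (1.85% of all genes), and 0 were lower (0.248%). Both were under 20 CPM at D11 and reached the minimum through D14, so these calls are a description. Gbp2 and Gbp5 had 117 UMIs each at D14, fewer than Ifit2.

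Cells with erythroid markers held Rsad2 and Isg15 and little else of the list, with CPM taken over UMIs that were mostly hemoglobin. Rsad2 was at 599, 671 and 466 CPM and Isg15 at 128, 273 and 78.7 CPM in them. Their number was 56, 1240 and 934. Rsad2 in B-like cells stood at 0.41, 22.9 and 3.15 CPM, and 24 of its 34 UMIs at D11 lay in 14 cells with over 1% hemoglobin UMIs. In NK-like cells at D11 all 9 Rsad2 UMIs lay in 17 such cells. In neutrophil-like cells with at most 1% hemoglobin, Rsad2 was at 201, 244 and 54.3 CPM, beside 201, 257 and 65.5 CPM over all neutrophil-like cells.

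Upstream of the members stand the receptors and transducers, of which 8 are described here. Where they passed the minimum, none of the 8 was past 2-fold in any of the 6 classes at D11 or D14, and under the minimum were Tyk2 in neutrophil-like and Ifngr2 in NK-like cells. In ncMono-like cells Ifnar1 was at 50.8, 48.2 and 48.7 CPM, Ifnar2 at 441, 339 and 265 CPM, Ifngr1 at 626, 697 and 498 CPM and Ifngr2 at 146, 184 and 150 CPM. Jak1 was at 293, 328 and 353 CPM, Jak2 at 163, 180 and 184 CPM, Tyk2 at 48.8, 42.2 and 37.0 CPM and Irf9 at 63.5, 68.2 and 47.6 CPM. Of these the type I receptor chain Ifnar2 was the 1 with the farthest D14 ratio, -0.74 [-0.89 to -0.58].

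In cMono-like cells Irf9 was at 98.5, 97.8 and 66.4 CPM and Ifnar2 at 354, 329 and 237 CPM. The other 6 had D14 log2 ratios between -0.32 and 0.26. In neutrophil-like cells, Ifnar1, Ifnar2 and Ifngr1 had D14 log2 ratios of -0.79, -0.71 and -0.76, beside a median of -0.21 over all genes. T-like cells held Ifngr1 at 210, 298 and 346 CPM.

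Of 9 interferon ligand genes, Ifng in NK-like cells alone passed the minimum, at 35.1, 37.6 and 42.4 CPM, and its intervals included no change. Plasmacytoid dendritic-like cells, which are known as the main blood source of type I interferon, numbered 0, 2 and 0. Of 10 regulators, 9 passed the minimum in each monocyte-like class, and Socs3, a feedback inhibitor of cytokine signaling, was past 2-fold higher in both at both times, joined by Irf2bp2 in ncMono-like cells at D14, and 0 were lower there. The shares of all genes that were higher were 1.94% and 3.09% in ncMono-like and 0.993% and 3.97% in cMono-like cells. In NK-like cells 2 of 8 regulators past the minimum, Irf3 and Irf8, were higher at D14 (3.07% of all genes). Of 8 further nucleic acid sensors found, Ddx58 was lower in cMono-like cells at D14, 1 of 5 past the minimum (3.52% of all genes), and none of the 4 past it was past 2-fold in ncMono-like or neutrophil-like cells.

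A list of 53 further interferon-stimulated genes that are not members was counted in the same way. In cMono-like cells 13 of 33 past the minimum were lower at D14 (3.52% of all genes), among them Oasl1, Herc6 and Eif2ak2, and 0 were higher (3.97%), with a median log2 ratio of -0.81. In ncMono-like cells 6 of 30 were lower (2.61%) and Gbp2b, another guanylate-binding gene, was higher (3.09%). In neutrophil-like cells 2 of 28 were higher, Ifitm6 and Nlrc5, a share near the 6.9% of all genes, and 2 were lower, Oasl1 and Gbp9 (9.15% of all genes). These lists were hand-written with earlier results of these data known, and the counts are a description.

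Transcripts that mark other classes were also read in these cells. In ncMono-like cells the 7 neutrophil markers summed to 181, 192 and 147 CPM and the 6 cMono markers to 182, 141 and 57.8 CPM, while their own 6 markers summed to 4056, 4034 and 3569 CPM. The sum of the cMono markers Ccr2, F13a1, Ly6c2, Fn1, Vcan and Ly6c1 was thus lowest at D14, as most members were in ncMono-like cells. Ccr2 was at 141, 69.3 and 9.07 CPM in these cells, and Ly6c2 and Ly6c1 were also lower at D14 than in naive. F13a1, Fn1 and Vcan were higher at D14 than in naive there. The part of these markers in the result was not tested. In cMono-like cells the neutrophil markers summed to 268, 319 and 504 CPM, of which Wfdc21 held 0, 13.8 and 220 CPM. The cMono markers summed to 5390, 5268 and 5323 CPM there, but single markers moved apart. Vcan was at 55.8, 78.5 and 541 CPM and Fn1 at 1336, 1348 and 1677 CPM. Ccr2 was at 1135, 872 and 673 CPM, Ly6c2 at 961, 1173 and 657 CPM and Ly6c1 at 252, 181 and 128 CPM. F13a1 was at 1649, 1616 and 1647 CPM, and the part of this shift in the members' values was not tested. The 6 pro-B leukemia markers summed to 1.95, 2.17 and 34.7 CPM among ncMono-like and to 0, 12.4 and 62.2 CPM among neutrophil-like cells. The leukemia cells themselves held Gbp2 and Gbp5 at 6.98 CPM at D14, below the D14 levels of both genes in those classes. They held Gbp7 at 205 CPM, above its D14 levels of 45.2 CPM among ncMono-like and 147 CPM among neutrophil-like cells. The part of leukemia transcripts in the Gbp2, Gbp5 and Gbp7 values was not tested. The median UMIs of a cMono-like cell were 12760, 13636.5 and 21019.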

How the data were processed

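PB leukocytes were captured with 10x Genomics 3′ v3 chemistry. The authors ran Cell Ranger on the reads against mm10 and deposited its filtered matrices, in which each value is a raw UMI count, not normalized. The version is 7.1.0 in the submitters' processing notes and 5.0.1 in the matrix headers. Balb/C reads were thus counted against a C57BL/6 genome.

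Barcodes were filtered and gated by marker counts, with doublets scored by Scrublet in scanpy 1.11.5 (0.8% per 1000 cells) and kept. UMIs were summed per class and library and scaled to CPM. The 95% intervals are exact Poisson for levels, conditional binomial for ratios and Clopper-Pearson for shares (scipy 1.17.1). A ratio against 0 uses a floor of 3 counts per class. TMM factors came from edgeR 4.0.16 (R 4.3.3). Intervals and gates were also run on simulated data that met their own assumptions. The simulated counts held counting error only, and each simulated cell carried mostly the markers of its own list. These runs check the code and say little about real cells or libraries. The alternatives were other minimums and folds, stricter filters and gates, doublets removed, other scalings and the set without its leading members. With 1 library per condition no p-value was computed.

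The members and lists were chosen with earlier results of these data known. Members named in the text are the 5 with most UMIs in a class, those past 2-fold at D14 in a monocyte-like class, those that moved against the summed share, near-identical pairs, and the receptors and transducers, of which 1 is not reported here. Family groups, the hemoglobin and granule splits and the 6-gene cell measure were chosen after the values were seen, as were members named as examples of a family or class. Mx1, Mx2 and Mnda were not analysed here.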

Additional observations from a re-analysis of the deposited data

Results flagged for a closer look

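The D14 to naive ratio of 5 members went one way in some classes and the other way in others, with each counting interval clear of no change and each log2 ratio at least 0.5 in size. The differences between classes were not tested, since each condition had 1 library. The share of all genes that meet this rule was not computed, so the count is a description and not a trait of the members. Ifitm3 had log2 ratios of -1.13 in ncMono-like and -0.93 in cMono-like cells and 0.70 in neutrophil-like cells, where the ratio was 0.20 [0.12 to 0.29] in cells with few granule transcripts. Ifi47 was at -0.78 in cMono-like and 1.52 in neutrophil-like cells, and Igtp at -0.65 and 0.62 in the same classes. Gbp7 was at 1.28 in ncMono-like, 1.88 in B-like and 0.51 in T-like cells and at -0.58 in NK-like cells. Parp14, an ADP-ribosyltransferase, was at -0.68 in cMono-like and 0.65 in NK-like cells. In NK-like cells the D14 class held 52 cells, so both of its ratios rest on few molecules.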

How the results depend on the processing

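Of 12 ratios of summed share, 9 stayed on the same side of 1 in every alternative run. Of 535 recomputed values of 65 member results, 524 kept direction and at least 2-fold and 0 reversed. The 65 results were those already past the minimum and 2-fold in the main run, and every alternative used the same libraries. The absence of reversals therefore says little. The alternatives on hemoglobin, granule genes and the set without Isg15 and Rsad2 were chosen after seeing the data. The cause of each shift was not tested. Ratios are D11 or D14 over naive. Under TMM, D11 became 0.941 in ncMono-like, 0.813 in cMono-like, 1.02 (reversed) in neutrophil-like and 1.26 in T-like cells, and D14 became 0.485 in ncMono-like, 0.745 in neutrophil-like and 0.962 (reversed) in T-like cells. With at most 1% hemoglobin, D11 was 0.928 in neutrophil-like and 1.37 in T-like cells. Without granule-gene-high cells, neutrophil-like ratios were 0.978 and 0.766. Means of per-cell shares gave D14 ratios of 0.50 in ncMono-like and 0.432 in cMono-like cells, and 0.962 at D11 and 0.632 at D14 in neutrophil-like cells. Without scored doublets, T-like ratios were 1.38 and 1.14. The stricter gate gave 0.489 (ncMono-like D14), 0.756 and 0.382 (cMono-like D11 and D14) and 1.40 (T-like D11). Without Isg15 and Rsad2, neutrophil-like ratios were 0.864 and 0.685. Without ribosomal, mitochondrial and hemoglobin UMIs, ratios were 0.422 (cMono-like D14), 0.944 and 0.674 (neutrophil-like D11 and D14) and 1.01 (T-like D14). Without the 3 most abundant members they were 0.846 and 0.581 (ncMono-like), 0.761 and 0.400 (cMono-like), 0.968 and 0.631 (neutrophil-like), 1.25 (B-like D11), 1.13 (T-like D14) and 0.923 (NK-like D14). Counts of members past 2-fold moved too. The shares over all genes were not computed under these alternatives, so the following counts are a description. At 1.5-fold, D11 had 6 lower in ncMono-like and 8 in cMono-like cells. At a minimum of 50 CPM, ncMono-like counts were 1 higher at D11 and 0 higher and 5 lower at D14, and cMono-like counts were 0 lower at D11 and 13 at D14. With no minimum, ncMono-like counts were 6 higher and 1 lower at D11 and 6 higher and 21 lower at D14, and cMono-like counts were 4 lower at D11 and 1 higher at D14. Without doublets and under the stricter gate 1 was higher in ncMono-like cells at D11, and under the stricter gate 4 were lower in cMono-like cells. No paired analysis was possible because each condition had 1 library. The B-like D14 ratio of 0.975, within counting error of 1, was 1.02 under the stricter gate and 1.08 without the 3 most abundant members. Depth limits B-like and NK-like cells at D14, where 1 UMI is worth several CPM.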

Other observations

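Within the lists of other interferon genes, B-like cells at D14 held Psmb9 and Nlrc5, which serve antigen presentation, past 2-fold higher (5.08% of all genes) and Dtx3l, Sp110 and Ms4a4c past 2-fold lower (4.59%), of 25 further interferon-stimulated genes past the minimum. In T-like cells 1 of 34 was higher at D14, Ly6e, and 1 at D11, Phf11b, beside 5.06% and 3.74% of all genes. These are values of 1 library per condition.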
